A study of Homo sapiens with 12 samples.

Results

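The cGAS-STING route of cytosolic DNA sensing was followed through 10 genes named by symbol: CGAS, STING1, TBK1, IKBKE, IRF3, IFI16, TREX1, BANF1, ENPP1 and MAVS. Each symbol was matched to 1 gene identifier among the 60660 genes of the count table, and 9 of the 10 had enough counts to be tested. RNA was measured 48 h after treatment in 12 libraries, 4 groups of 3, whose labels name HS578T, a long-established mesenchymal line from a triple-negative breast tumour. Cells labelled as having an intact short arm of chromosome 17 (17p), titled cas9 or CAS9 and of WT genotype in the labels, received DMSO or 170 nM doxorubicin. Cells labelled as carrying a heterozygous loss of 17p, titled 17PKO, received DMSO or 1 µM doxorubicin. Doxorubicin is an anthracycline that poisons topoisomerase II and breaks DNA. The labels do not say whether a single clone or a pool of cells was used, and only the intact titles name Cas9. None of the 10 genes lies on chromosome 17.

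When double-stranded DNA appears in the cytosol, the enzyme cGAS (CGAS) binds it and makes the cyclic dinucleotide cGAMP, which binds STING (STING1) on the endoplasmic reticulum. STING moves to the Golgi and recruits the kinase TBK1, aided by its relative IKKε (IKBKE), which phosphorylates the transcription factor IRF3 and so switches on type I interferon and other antiviral genes. IFI16 is a further DNA sensor, TREX1 and BAF (BANF1) keep self DNA away from cGAS, ENPP1 breaks down extracellular cGAMP, and MAVS feeds RNA sensing into the same kinases. Damaged or missegregated DNA in tumour cells is a known trigger of the route, and many tumour lines carry low CGAS or STING1.

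STING1 and CGAS set the main pattern. In the deleted cells at 1 µM doxorubicin STING1 RNA was 2.84-fold that of DMSO, CGAS and IFI16 also rose, and BANF1 fell. In DMSO the deleted cells held less STING1 and IKBKE RNA than the intact cells, and more BANF1. Both BANF1 calls ended when certain single libraries were left out. At 170 nM doxorubicin no gene of the 9 passed the test in the intact cells, where 0.0596% of all genes tested did.

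Library totals ran from 66150539 to 99142099 counts, so that 3 counts stood for 0.0305 to 0.0444 CPM (counts per 1000000 of the TMM-scaled library size), and floors cover counting error only. Dose and genotype label change together among the treated groups and cannot be told apart there, and neither can genotype and any other difference between the 2 cell populations. A check of chromosome-specific transcripts failed to match the karyotype recorded for HS578T in 12 of 12 libraries, and the cells are therefore named only as labelled. Of 8 mesenchymal markers at least 7 were above 1 CPM in every group, with summed levels of 8037 to 8483 CPM in intact DMSO, 5571 to 5963 in deleted DMSO, 6933 to 7160 in intact doxorubicin and 3608 to 3654 in deleted doxorubicin libraries. COL1A2, which encodes a type I collagen chain, was at 0.0848 to 1.79 CPM, and the epithelial genes CDH1 and EPCAM were at most at 0.441 CPM. 2 libraries stood apart, in that mitochondrial genes took 6.90% of counts in replicate 2 of deleted DMSO and 5.54% in replicate 1 of intact doxorubicin, against 2.61% to 3.57% in the other 10.

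Promoter sequences were compared because IFI16 and several output genes of the route are interferon-inducible. RefSeq promoter windows (GRCh38.p14, 250 bases before to 50 after the start) were matched for 7 of the 10 genes, in 8 windows; CGAS, STING1 and IRF3 were not matched, and the counts of windows do not cover them. They were searched on both strands for the core of the interferon-stimulated response element (GAAA, any 2 bases, GAAA) and for the IRF pair GAAANGAAA. Overlapping matches of a motif counted once per window. The first was in 0 of 8 windows of these genes, in 3.57% of all 35116 windows and in 9 of 15 windows of known IRF3 target genes. The IRF pair was in 1 of the 8, the second IFI16 window, and in 3.12% of all windows. The 250 upstream bases are shown 5′ to 3′ for IFI16, whose match 54 bases before the start is in capitals, and for the kinases and BANF1, which have no match and differ in CpG content.
IFI16, chr1:159009657-159009906, plus strand: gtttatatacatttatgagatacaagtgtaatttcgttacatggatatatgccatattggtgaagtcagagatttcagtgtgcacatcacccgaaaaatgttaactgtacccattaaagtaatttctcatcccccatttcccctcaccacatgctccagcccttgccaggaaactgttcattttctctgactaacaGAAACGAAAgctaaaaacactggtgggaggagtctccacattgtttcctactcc
TBK1, chr12:64451870-64452119, plus strand: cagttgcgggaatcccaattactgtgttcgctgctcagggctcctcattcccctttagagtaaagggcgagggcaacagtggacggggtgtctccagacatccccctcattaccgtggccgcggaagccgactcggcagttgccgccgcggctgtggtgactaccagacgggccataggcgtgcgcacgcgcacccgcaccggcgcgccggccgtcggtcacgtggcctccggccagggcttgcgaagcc
IKBKE, chr1:206470226-206470475, plus strand: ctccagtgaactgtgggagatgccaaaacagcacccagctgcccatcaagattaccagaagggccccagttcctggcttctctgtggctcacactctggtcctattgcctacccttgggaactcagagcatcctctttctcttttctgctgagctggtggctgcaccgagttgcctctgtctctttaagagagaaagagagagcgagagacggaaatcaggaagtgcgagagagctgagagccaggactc
BANF1, chr11:66002253-66002502, plus strand: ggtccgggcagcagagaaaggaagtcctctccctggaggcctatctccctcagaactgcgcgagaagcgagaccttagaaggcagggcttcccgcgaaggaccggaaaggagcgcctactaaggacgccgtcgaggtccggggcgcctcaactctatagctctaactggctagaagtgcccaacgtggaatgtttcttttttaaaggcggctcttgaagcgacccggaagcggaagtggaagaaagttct
The 300-base windows held 3 CpG dinucleotides at IFI16, 35 at TBK1, 5 at IKBKE and 23 at BANF1, against a median of 14 over all windows. A match describes letters only. IFI16 rose at 1 µM doxorubicin and holds the motif in its second window only, and a link between the motif and the rise was not tested. TBK1 and IKBKE, related kinases, have start regions of unlike CpG content.

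The sensors came first. CGAS (ENSG00000164430.16, chromosome 6, 73413515 to 73452276, minus strand, hg38, GENCODE 29) was at 29.7, 30.8 and 30.4 CPM in the intact DMSO libraries and at 34.4, 36.8 and 35.5 CPM in deleted DMSO. It was at 34.95, 30.99 and 33.06 CPM in intact doxorubicin and at 59.6, 59.1 and 53.6 CPM in deleted doxorubicin. All 3 treated deleted libraries lay above every other library, and the remaining 9 fell within a narrow band. Within the deleted cells CGAS rose from 35.5 ± 1.23 to 57.4 ± 3.36 CPM (SD, n = 3), an edgeR log2 difference of 0.69, SE 0.085, adjusted p = 3.19e-05. In bulk RNA, more cells that express a gene and more RNA per cell cannot be told apart, here and for every gene below. Between treated groups it was higher in the deleted cells by 0.80 on the log2 scale, SE 0.086 (edgeR adjusted p = 4.24e-06). In DMSO the deleted libraries were all above the intact ones, yet the log2 difference of 0.23, SE 0.085, missed the threshold (edgeR adjusted p = 0.0519). In the intact cells doxorubicin gave 0.12, with a 95% interval of -0.062 to 0.31.

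IFI16 (ENSG00000163565.19, chromosome 1, 158999968 to 159055155), a nuclear and cytosolic DNA sensor that is itself an interferon-inducible gene, was at 76.4, 78.4 and 80.8 CPM in intact DMSO and at 67.8, 110 and 71.1 CPM in deleted DMSO. It was at 115, 79.3 and 92.7 CPM in intact doxorubicin and at 134, 155 and 140 CPM in deleted doxorubicin. The treated deleted libraries were the highest of the 12, while the libraries of high mitochondrial share, at 110 and 115 CPM, stood above the others of their groups. IFI16 rose 1.72-fold at 1 µM in the deleted cells (edgeR log2 difference 0.78, SE 0.17, adjusted p = 0.00308). Without the 2 libraries of high mitochondrial share that log2 difference was 1.03 (edgeR adjusted p = 1.17e-06). In DMSO the genotypes differed by 0.081, and by -0.21 without those libraries, neither past the threshold.

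STING1 is the adaptor on which the signal from cGAS converges. The gene (ENSG00000184584.13, chromosome 5, 139475534 to 139482935, minus strand) was at 58.0, 55.8 and 56.9 CPM in intact DMSO and at 37.9, 31.8 and 43.5 CPM in deleted DMSO. It was at 58.1, 73.3 and 64.5 CPM in intact doxorubicin and at 106, 105 and 111 CPM in deleted doxorubicin. The 4 groups did not overlap: deleted doxorubicin was highest, followed by intact doxorubicin, intact DMSO and deleted DMSO, although the lowest intact doxorubicin library, at 58.11 CPM, barely exceeded the highest intact DMSO library, at 58.04 CPM. The deleted cells thus went from the lowest group in DMSO to the highest in doxorubicin. In DMSO they held 37.7 ± 5.88 CPM against 56.9 ± 1.11 CPM in intact cells (SD, n = 3), an edgeR log2 difference of -0.59, SE 0.11, adjusted p = 0.00129. At 1 µM STING1 rose to 107 ± 2.99 CPM, a log2 difference from DMSO of 1.51, SE 0.12 (edgeR adjusted p = 3.91e-07). Between treated groups it was higher in the deleted cells by 0.72, SE 0.11 (edgeR adjusted p = 0.000159). At 170 nM the log2 difference in the intact cells was 0.20, with a 95% interval of -0.048 to 0.44. These comparisons share groups, and the direction of the genotype difference in STING1 was opposite in DMSO and in doxorubicin, both past the threshold.

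**Figure D1:**
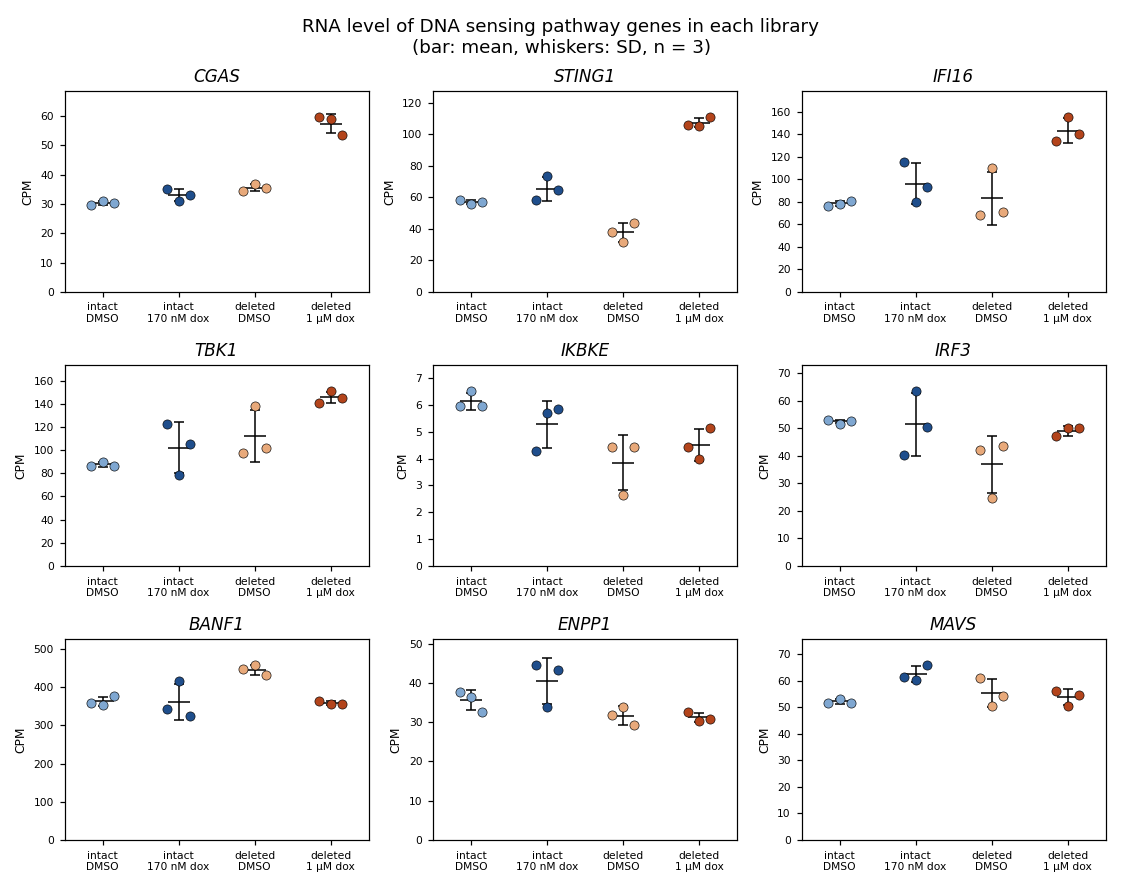
RNA level in CPM (y axis, from 0) of the 9 genes with counts in each of the 12 libraries, by group on the x axis; points are libraries, bars the mean and whiskers the SD of 3 libraries. CGAS, STING1 and IFI16 are highest in all 3 deleted libraries at 1 µM doxorubicin, and STING1 is lowest in the 3 deleted DMSO libraries at 31.8 to 43.5 CPM.

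The kinases below STING differed widely in abundance. TBK1 (ENSG00000183735.11, chromosome 12, 64451880 to 64502108) was at 86.2, 89.9 and 86.5 CPM in intact DMSO and at 97.3, 138 and 101.7 CPM in deleted DMSO. It was at 122, 78.8 and 105 CPM in intact doxorubicin and at 141, 151 and 145 CPM in deleted doxorubicin. The treated deleted libraries were again the highest, but the 2 libraries of high mitochondrial share, at 138 and 122 CPM, came next. Between treated groups TBK1 was higher in the deleted cells by 0.51, SE 0.15 (edgeR adjusted p = 0.0129), and by 0.61 without those 2 libraries. The fit without them keeps replicate 2 of intact doxorubicin, the lowest TBK1 library at 78.8 CPM. Leaving out replicate 2 or replicate 3 of deleted doxorubicin ended that call, with a largest adjusted p of 0.0620 in edgeR. Against their own DMSO the deleted cells gave 0.37, SE 0.15, which missed the threshold (edgeR adjusted p = 0.0801). The same value was 0.54 without the 2 libraries and passed (edgeR adjusted p = 0.00117). Exons of TBK1 overlap those of an antisense gene over 14.7% of their length, and that gene held 803 counts over all libraries.

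IKBKE (ENSG00000263528.8, chromosome 1, 206470476 to 206496889) was by far the scarcer kinase. It was at 5.95, 6.51 and 5.95 CPM in intact DMSO and at 4.44, 2.66 and 4.43 CPM in deleted DMSO. In doxorubicin it was at 4.27, 5.70 and 5.86 CPM in intact and at 4.43, 3.98 and 5.16 CPM in deleted libraries. All deleted DMSO libraries were below all intact DMSO libraries, and the treated groups overlapped. The edgeR log2 difference between genotypes in DMSO was -0.67, SE 0.20, adjusted p = 0.0162. Without the libraries of high mitochondrial share it was -0.50 (edgeR adjusted p = 0.00949). Per kb of exon the intact DMSO cells held 18.4 CPM of TBK1 and 1.62 CPM of IKBKE.

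IRF3 (ENSG00000126456.16, chromosome 19, 49659569 to 49665875, minus strand), the transcription factor that these kinases activate by phosphorylation, passed in none of the 5 comparisons, although in DMSO it lay at the threshold. It was at 52.9, 51.7 and 52.8 CPM in intact DMSO and at 42.2, 24.8 and 43.7 CPM in deleted DMSO. It was at 40.5, 63.4 and 50.5 CPM in intact doxorubicin and at 47.0, 50.1 and 50.1 CPM in deleted doxorubicin. The deleted DMSO libraries were all below the intact DMSO ones, and the lowest, at 24.8 CPM, was the library of the highest mitochondrial share. The log2 difference in DMSO was -0.51, SE 0.19, just outside the threshold (edgeR adjusted p = 0.0505). It was -0.32 without the 2 libraries of high mitochondrial share and then passed (edgeR adjusted p = 0.0133). In all, 14 of 22 alternatives made a call of it in DMSO, as did 2 at 1 µM in the deleted cells and 1 between treated groups. BCL2L12, on the opposite strand, shares 19.3% of the IRF3 exon length and held 31001 counts over the 12 libraries. The strand setting of the counting is not given in the sources used here, so reads of the 2 genes may not have been told apart.

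Among the genes that restrain the route, TREX1 could not be read. TREX1, the exonuclease that degrades cytosolic DNA (ENSG00000213689.14, chromosome 3, 48465811 to 48467645), had 0 counts in all 12 libraries, which allows up to 3 counts in each. All 1515 of its annotated exon bases, 100% of its length, lie in exons of ATRIP on the same strand. ATRIP, which encodes the partner of the damage kinase ATR, held 19289 counts over the 12 libraries. Whether reads from TREX1 were set aside or given to ATRIP was not tested, and the 0 is no measure of TREX1 expression.

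BANF1 (ENSG00000175334.8, chromosome 11, 66002079 to 66004149) encodes barrier-to-autointegration factor, a small protein that coats DNA and competes with cGAS for it. It was at 358, 353 and 377 CPM in intact DMSO and at 447, 457 and 432 CPM in deleted DMSO. In doxorubicin it was at 344, 415 and 324 CPM in intact and at 364, 357 and 356 CPM in deleted libraries. The 3 deleted DMSO libraries were the highest of the 12, and the other groups overlapped. BANF1 was higher in the deleted cells in DMSO by 0.30, SE 0.092 (edgeR adjusted p = 0.0229), and fell by 0.31 at 1 µM, SE 0.092 (edgeR adjusted p = 0.0197). Leaving out single libraries ended the first call in 7 of 12 cases (replicate 1 or 2 of intact DMSO, replicate 1 or 2 of deleted DMSO, any of deleted doxorubicin), with a log2 difference of at least 0.23. Leaving out any of the 3 deleted doxorubicin libraries ended the second, with a largest adjusted p of 0.0647 in edgeR. Per kb of exon BANF1 was the most abundant of the 9 genes, at 218 to 271 CPM as group means, though reads from near-identical processed copies of so short a gene are uncertain. EIF1AD, on the opposite strand, shares 6.0% of the BANF1 exon length and held 85072 counts over the 12 libraries. With the strand setting not given, reads of BANF1 and EIF1AD may not have been told apart there.

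ENPP1 (ENSG00000197594.13, chromosome 6, 131808016 to 131895155), the ectoenzyme that hydrolyses cGAMP outside the cell, was at 37.7, 36.5 and 32.7 CPM in intact DMSO and at 31.8, 33.9 and 29.2 CPM in deleted DMSO. It was at 44.4, 33.8 and 43.3 CPM in intact doxorubicin and at 32.6, 30.3 and 30.7 CPM in deleted doxorubicin. The treated deleted libraries lay just below all treated intact ones. That difference was -0.38, SE 0.11 (edgeR adjusted p = 0.0138), and it missed the threshold without replicate 3 of intact doxorubicin (edgeR adjusted p = 0.0542).

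MAVS (ENSG00000088888.18, chromosome 20, 3846799 to 3876123), the mitochondrial adaptor of RNA sensing, was the steadiest of the 9 by group means, which spanned 1.19-fold. It was at 51.7, 53.2 and 51.7 CPM in intact DMSO and at 61.1, 50.5 and 54.2 CPM in deleted DMSO. It was at 61.3, 60.1 and 65.7 CPM in intact doxorubicin and at 56.3, 50.4 and 54.6 CPM in deleted doxorubicin. The intact cells were higher in doxorubicin than in DMSO in all libraries, with a log2 difference of 0.26, SE 0.091, that did not pass (edgeR adjusted p = 0.309). Between treated groups the deleted cells were lower by a log2 difference of -0.22 (edgeR adjusted p = 0.0655), which passed without the 2 libraries of high mitochondrial share at -0.28 (edgeR adjusted p = 0.0134).

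Counted together, in DMSO 1 of 9 genes was higher and 2 were lower in the deleted cells, where 34.9% of all 21803 genes tested passed, 18.8% higher and 16.2% lower. At 170 nM 0 of 9 passed in edgeR, against 0.0596% of all genes (0.0275% higher, 0.0321% lower). MAVS alone had an unadjusted p under 0.05, which 11.5% of all genes had, and DESeq2 and limma-voom also called 0 of 9. At 1 µM in the deleted cells 3 rose and 1 fell, where 30.7% of all genes passed, 17.5% higher and 13.1% lower. Between treated groups 4 were higher and 1 lower in the deleted cells, where 47.8% of all genes passed, 25.9% higher and 21.9% lower. These shares of 9 genes are read against that background, and no excess of changed genes in the route is drawn from them. Groups did not overlap for 6 of 9 genes in DMSO (49.5% of all genes), 4 of 9 at 170 nM (19.4%), 6 of 9 at 1 µM (45.3%) and 6 of 9 between treated groups (57.1%). The median log2 differences over the 9 genes were 0.081, 0.19, 0.37 and -0.0097 in the order of these comparisons, beside 0.038, 0.0073, -0.018 and 0.016 over all genes.

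The test of the difference between the doxorubicin effects asked whether the response at 1 µM in the deleted cells departed from that at 170 nM in the intact cells. It was positive for STING1, at 1.31, SE 0.16 (edgeR adjusted p = 7.65e-05), and for CGAS, at 0.57, SE 0.12 (edgeR adjusted p = 0.00490). The other 7 did not pass, and 17% of all genes did, 10.3% upward and 6.74% downward. IFI16 was at 0.50, SE 0.24, and became a call without the 2 libraries of high mitochondrial share, at 0.89 (edgeR adjusted p = 0.000214). TBK1 passed at 0.46 and MAVS at -0.39 in that same fit, which makes 4 higher and 1 lower. There 11.2% of all genes were higher and 9.72% lower. That fit keeps replicate 2 of intact doxorubicin, where IFI16 and TBK1 lay below their group means, at -0.25 and -0.35 in log2(CPM + 1). With single libraries left out the difference for IFI16 ran from 0.37 to 0.75. The shares of dose and of genotype in the differences of this test cannot be told apart.

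**Figure D2:**
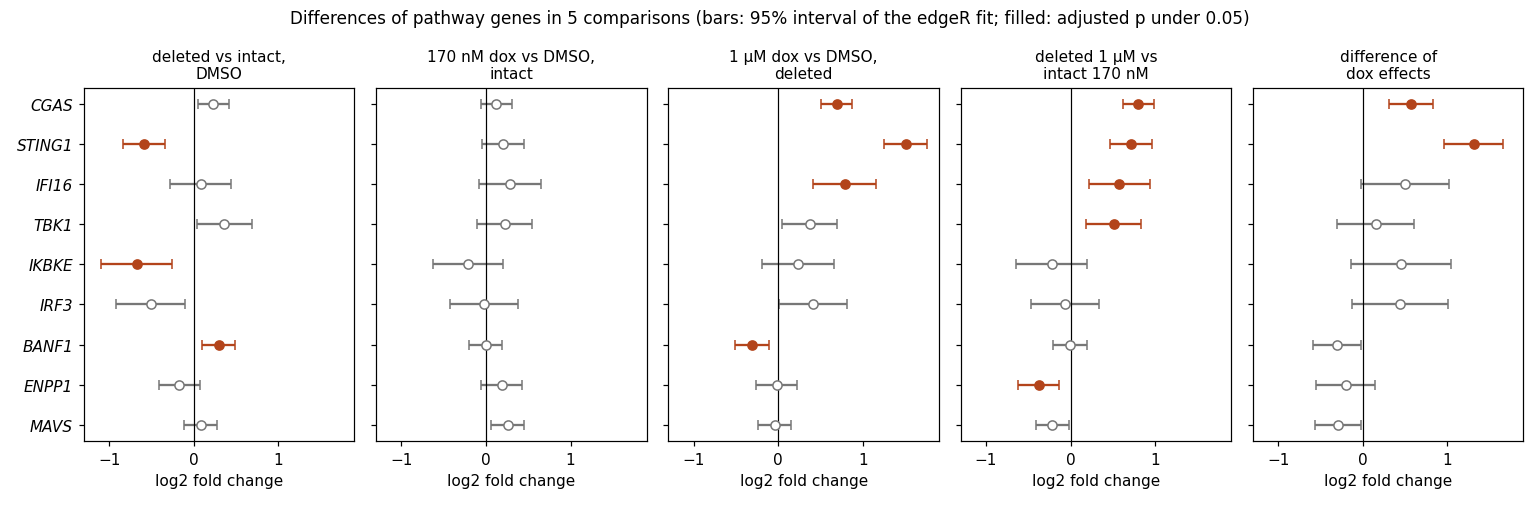
Log2 fold change (x axis) of the 9 tested genes (rows) in the 5 comparisons (panels), with 95% intervals of the edgeR fit; filled points have an adjusted p under 0.05. STING1 lies at -0.59 in DMSO between genotypes and at 1.51 for 1 µM doxorubicin in the deleted cells, and in the intact cells no point is filled.

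In the 2 libraries of high mitochondrial share the deviations of these genes ran with base composition, and in replicate 2 of intact doxorubicin they did so in the opposite direction. IFI16, TBK1, ENPP1 and CGAS have transcripts of 38.6% to 43.6% GC, and MAVS, BANF1, STING1, IKBKE and IRF3 of 52.1% to 59.0%. In replicate 2 of deleted DMSO IFI16 lay 0.44 above and IRF3 was at -0.51 against the mean of its group, on the log2(CPM + 1) scale. In replicate 1 of intact doxorubicin IFI16 lay 0.28 above its group mean and IRF3 was at -0.32. In both libraries of high mitochondrial share the 4 genes of low GC content were above their group means and STING1, IKBKE and IRF3 below them. Deviations in the other libraries of those groups have the opposite sign in part because they share that mean. In the intact DMSO and deleted doxorubicin libraries the deviations of IFI16 and IRF3 were smaller, at most 0.12 in size. In replicate 3 of deleted doxorubicin the 4 genes of low GC content were below their group means, and STING1, IKBKE and IRF3 above them. In replicate 2 of intact doxorubicin IFI16 was at -0.25, TBK1 at -0.35 and IRF3 at 0.32, while replicate 3 was at -0.031, 0.066 and -0.0032. Replicate 2 of intact doxorubicin, with a mitochondrial share of 3.57%, is kept in the fits that leave out the 2 libraries of high mitochondrial share. With the GC trend of each library removed, 6 of 9 genes passed in DMSO (2 higher, 4 lower), 6 passed at 1 µM in the deleted cells (5 higher, 1 lower) and 6 in the difference (4 higher, 2 lower). The shares of all genes that passed in that fit were also larger, at 41.6%, 38.1% and 23.3%. STING1 and CGAS kept both direction and call at 1 µM, between treated groups and in the difference under every alternative tried, and STING1 and IKBKE did so in DMSO.

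**Figure D3:**
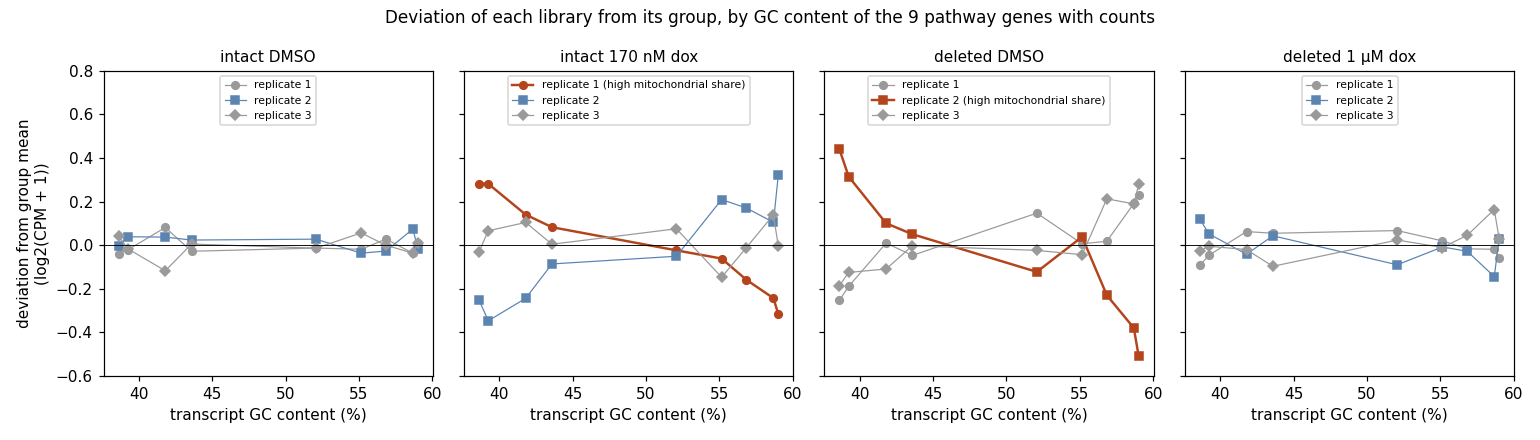
Deviation of each library from its group mean in log2(CPM + 1) (y axis) against transcript GC content in percent (x axis) for the 9 genes with counts, with a panel per group and a line per library. Replicate 2 of deleted DMSO and replicate 1 of intact doxorubicin, in red, fall from 0.44 and 0.28 at IFI16 to -0.51 and -0.32 at IRF3. Replicate 2 of intact doxorubicin runs the other way, from -0.25 at IFI16 to 0.32 at IRF3.

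Genes that the route can switch on were followed in a list of 14 known IRF3 target and partner genes. Of these 11 could be tested, while IFNB1, IFNL2 and IFNL3 had at most 8 counts in a library and were not. Whether the route drove the levels of the listed genes was not tested. IFNL1 passed the filter only through the treated deleted libraries, where it is high, so its rise was fixed by the filter. In DMSO 8 of 11 were lower and 0 higher in the deleted cells, with a median of -1.07, where 16.2% of all genes were lower. At 170 nM 1 of 11 was higher in the intact cells, where 0.0275% of all genes were. At 1 µM in the deleted cells 11 of 11 rose, where 17.5% of all genes did. Leaving out IFNL1, 10 of 10 rose, with a median of 1.81. This list and those below were chosen with earlier results of these data known, so no excess of changed genes is drawn from their counts. The median of the 11 in DMSO is the same with CXCL10, at 0 counts in a group, set to its bound. Without the 2 libraries of high mitochondrial share the counts were 8 lower in DMSO, 3 higher at 170 nM and 11 higher at 1 µM, where 18.6% of all genes were lower, 0.485% higher and 18.9% higher.

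IFIT1, an antiviral RNA-binding protein, was at 62.0, 57.3 and 63.7 CPM in intact DMSO, 21.3, 26.3 and 22.7 in deleted DMSO, 95.2, 89.6 and 90.9 in intact doxorubicin and 43.2, 46.1 and 41.9 in deleted doxorubicin. The groups did not overlap, and the treated deleted cells stayed below the untreated intact cells. IFIT1 was the list's 1 call at 170 nM, at 0.59, SE 0.094 (edgeR adjusted p = 0.0445), and 13 of 22 alternatives ended that call. OASL, an antiviral relative of the oligoadenylate synthetases, was at 43.3, 44.2 and 45.6 CPM in intact DMSO, 25.2, 20.1 and 22.7 in deleted DMSO, 46.1, 57.0 and 53.1 in intact doxorubicin and 73.9, 67.5 and 68.6 in deleted doxorubicin. Its order of groups was that of STING1. At 1 µM OASL rose by 1.63, SE 0.11, in the deleted cells (edgeR adjusted p = 8.02e-08), and IFIT3 by 1.77, SE 0.12 (edgeR adjusted p = 8.35e-08). ISG15, a ubiquitin-like protein, rose there by 1.84, SE 0.34 (edgeR adjusted p = 0.000979), and ranged from 19.0 to 54.7 CPM in the intact doxorubicin libraries.

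CCL5, a chemokine, kept a large genotype difference throughout. It was at 7.92, 7.47 and 9.21 CPM in intact DMSO and at 0.326, 0.923 and 0.695 CPM in deleted DMSO, and at 9.94 to 12.9 CPM in intact and 1.61 to 1.70 CPM in deleted doxorubicin. CCL5 rose by 1.35, SE 0.26, at 1 µM (edgeR adjusted p = 0.00117) but remained lower than in treated intact cells, at -2.76, SE 0.23 (edgeR adjusted p = 4.81e-07). ATF3, a stress-responsive factor that many damage signals induce, was at 7.73 to 10.2 CPM in 9 libraries and at 157.1, 157.0 and 156.9 CPM in the treated deleted ones. IFNB1, which encodes interferon beta, had at most 8 counts in a library, in deleted doxorubicin, and was not tested. CXCL10, an interferon-induced chemokine, had 0 counts in the 3 deleted DMSO libraries and 12 to 32 counts in the deleted doxorubicin libraries, at least 5.42-fold higher, with 3 counts in each DMSO library as the floor. The type III interferon gene IFNL1 had 77 to 109 counts in each treated deleted library and at most 16 in any other.

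**Figure D4:**
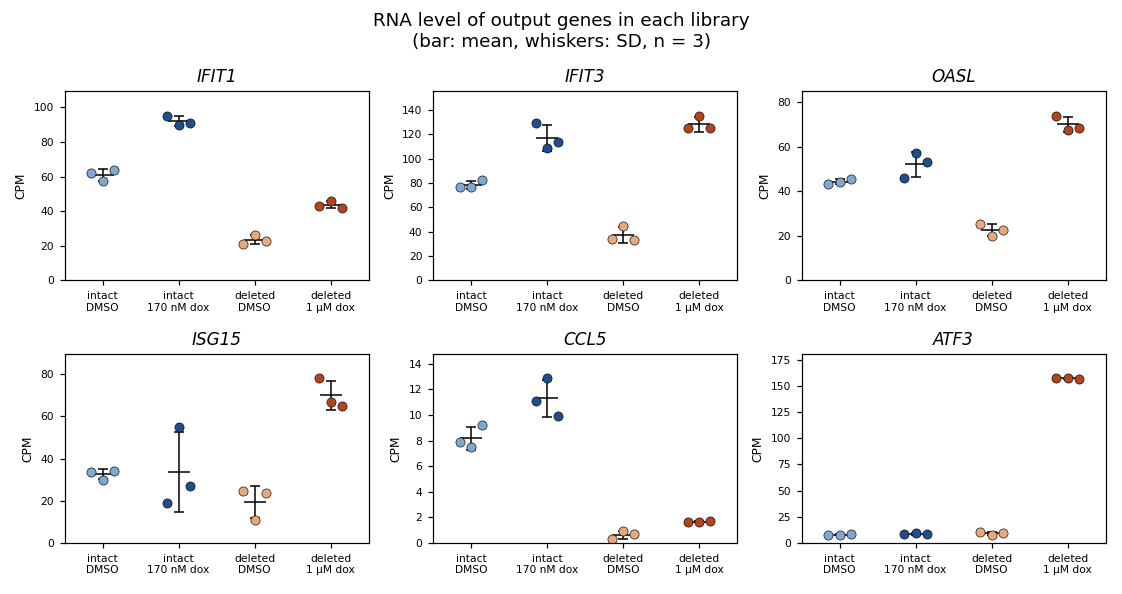
RNA level in CPM (y axis, from 0) of 6 output genes in each of the 12 libraries, by group on the x axis; points are libraries, bars the mean and whiskers the SD of 3 libraries. IFIT1 and CCL5 stay lower in deleted than in intact cells in both treatments, while OASL and ISG15 are highest in the 3 deleted libraries at 1 µM doxorubicin.

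Interferon signalling genes, a list of receptors, kinases, STAT and IRF factors and feedback inhibitors, had 3 of 11 higher and 5 lower in DMSO (all genes, 18.8% and 16.2%) and 7 of 11 higher and 0 lower at 1 µM in the deleted cells (all genes, 17.5% and 13.1%). These shares of all genes are the background for each list that follows. IRF1, a transcription factor induced by interferon gamma and damage, was at -1.11, SE 0.10, between genotypes in DMSO (edgeR adjusted p = 2.65e-06) and rose by 2.03, SE 0.10, at 1 µM (edgeR adjusted p = 8.26e-09). USP18, which damps the type I receptor, rose by 1.76 and STAT2, a subunit of the interferon-activated complex ISGF3, by 1.09. STAT2 was at 31.3 to 38.8 CPM in intact DMSO and at 108 to 112 CPM in treated deleted libraries. These groups differ in both label and drug, and the rise of STAT2 over deleted DMSO was 2.13-fold. The RNA sensing genes that signal through MAVS or TICAM1 had 1 of 11 higher and 5 lower in DMSO and 6 higher and 1 lower at 1 µM, against 17.5% and 13.1% of all genes. IFIH1, the RNA sensor MDA5, was lower in DMSO at -1.10 and rose by 1.74 at 1 µM, and TLR3, the endosomal RNA receptor, was at -1.85 in DMSO and rose by 1.70. NLRX1, a mitochondrial inhibitor of MAVS and STING signalling, was at 36.1 to 41.3 CPM in treated deleted libraries and rose by 1.62.

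Other DNA sensors had 1 of 11 higher and 2 lower in DMSO and 2 higher and 2 lower at 1 µM, near the 17.5% and 13.1% of all genes. AIM2, the inflammasome DNA sensor, was at 1.76 to 2.07 CPM in intact DMSO and at 0.0814 to 0.189 CPM in deleted DMSO, a log2 difference of -3.76, SE 0.28 (edgeR adjusted p = 4.37e-07). It rose by 2.46, SE 0.29, at 1 µM (edgeR adjusted p = 1.92e-05), to 0.731 to 0.816 CPM, still below the intact cells. MRE11, a break-binding nuclease, rose by 0.63, and XRCC6, the Ku70 subunit, fell by 0.29.

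Genes that clear nucleic acids had 3 of 10 higher and 0 lower in DMSO, and 2 higher and 0 lower at 1 µM, against 17.5% and 13.1% of all genes. DNASE1, a secreted DNase, was at 10.7 to 14.1 CPM in intact DMSO, 22.3 to 26.4 in deleted DMSO and 50.9 to 56.5 in deleted doxorubicin. It rose by 1.13, SE 0.12 (edgeR adjusted p = 7.03e-06). SAMHD1, a nucleotide hydrolase that limits cytosolic DNA, rose by 0.50.

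Genes of STING trafficking and turnover had 3 of 16 higher and 7 lower in DMSO, against 18.8% and 16.2% of all genes, and 5 higher and 4 lower at 1 µM, against 17.5% and 13.1%. ZDHHC1, tested in this list, passed the filter only through the treated deleted libraries. It was at 0.251 to 0.371 CPM there and at most at 0.0745 CPM in any other library, so its rise was fixed by the filter. SEC24C, a coat subunit that carries STING out of the endoplasmic reticulum, was at 134 to 141 CPM in intact and 53.1 to 79.3 CPM in deleted DMSO libraries, a log2 difference of -0.99, SE 0.13 (edgeR adjusted p = 5.78e-05). RHBDF2, the inactive rhomboid iRhom2 that supports STING trafficking and stability, rose by 1.89, SE 0.18, at 1 µM (edgeR adjusted p = 2.68e-06), from 10.7 to 17.9 CPM in DMSO to 54.1 to 60.1 CPM. TRIM32, a ubiquitin ligase that acts on STING, rose by 0.58, and ULK1, a kinase that limits STING signalling, by 0.87.

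Carriers and channels of cGAMP, with breakdown enzymes, had 3 of 10 higher and 4 lower in DMSO (all genes, 18.8% and 16.2%) and 3 higher and 2 lower at 1 µM (all genes, 17.5% and 13.1%). ENPP3, tested in this list, passed the filter only through deleted libraries. It was at 0.0740 to 0.204 CPM in deleted DMSO and at most at 0.0778 CPM in any intact library, so its genotype difference was fixed by the filter. LRRC8B and LRRC8D, subunits of the volume-regulated anion channels through which cGAMP can pass, were lower in the deleted cells in DMSO at -3.31, SE 0.24 (edgeR adjusted p = 3.56e-07) and -0.91, SE 0.096 (edgeR adjusted p = 8.95e-06). LRRC8D fell further at 1 µM, by 1.14, to 13.2 to 14.2 CPM. SLC46A1, a folate carrier that also takes up cGAMP, rose by 1.36, and P2RX7, an ATP-gated channel, by 2.09. Adaptors of TBK1 had 2 of 9 higher and 0 lower in DMSO and 1 higher and 1 lower at 1 µM, near the 17.5% and 13.1% of all genes. OPTN, an autophagy receptor that binds TBK1, was higher in the deleted cells in DMSO by 0.79 and rose by 0.51, and TBKBP1, a scaffold of TBK1, fell by 1.08.

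**Figure D5:**
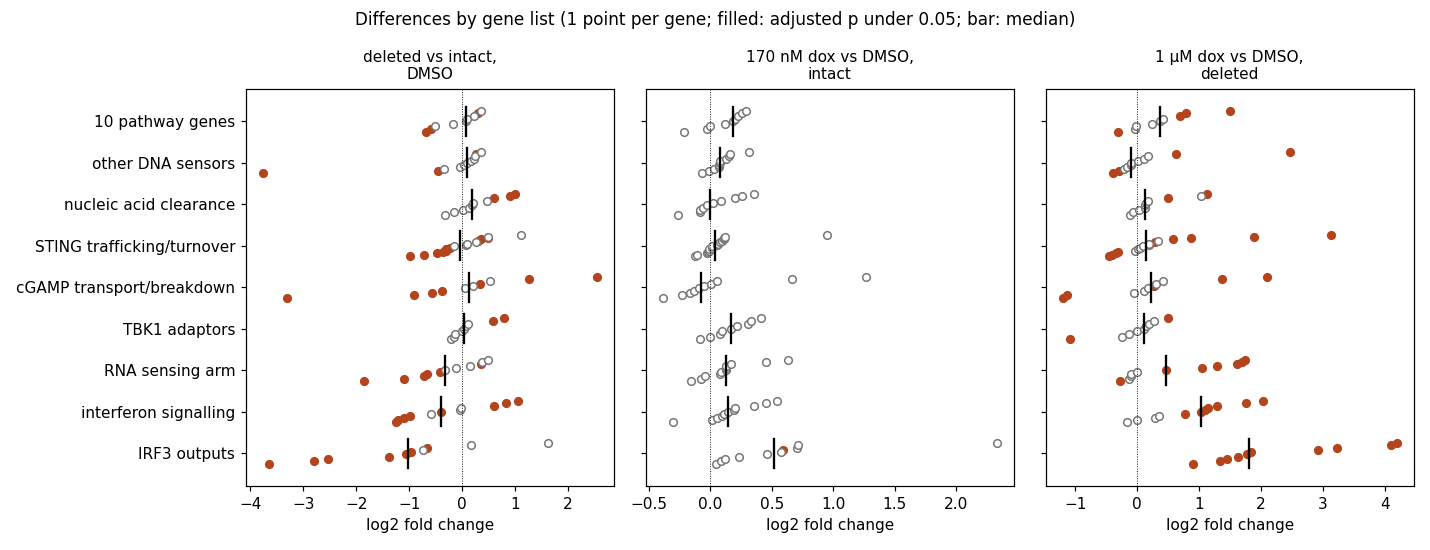
Log2 fold change (x axis) of each tested gene of the 9 lists (rows) in 3 comparisons (panels, each with its own x scale); filled points have an adjusted p under 0.05 in edgeR, and black bars are medians over the points drawn. CXCL10, at 0 counts in a group, is left out; all other IRF3 outputs lie above 0 at 1 µM in the deleted cells, and 1 point is filled at 170 nM in the intact cells. IFNL1, ZDHHC1 and ENPP3, which passed the filter only through deleted libraries, are among the points.

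Of 7 epithelial markers 3 or 4 were above 1 CPM in each group, among them the keratin KRT8 at 251 to 371 CPM, and their summed level was 482 to 503 CPM in intact DMSO, 459 to 620 in deleted DMSO, 385 to 563 in intact doxorubicin and 550 to 558 in deleted doxorubicin. Markers of blood and endothelial cells were low. The summed level of 8 blood markers was 1.13 to 1.54 CPM in intact DMSO, 1.39 to 1.79 in deleted DMSO, 1.21 to 1.77 in intact doxorubicin and 3.72 to 4.96 in deleted doxorubicin, where ITGAM, an integrin chain, was the only one above 1 CPM. CD3E, which defines T cells, was at most at 0.118 CPM, and PTPRC, which marks leukocytes, at most at 0.760 CPM. The summed level of 5 endothelial markers was 0.616 to 0.760 CPM in intact DMSO, 0.570 to 1.02 in deleted DMSO, 0.633 to 0.765 in intact doxorubicin and 1.25 to 1.97 in deleted doxorubicin. Their part in the levels of STING1, CGAS and IFI16 was not tested. Summed mesenchymal markers, carried by VIM, FN1, COL1A1 and SPARC, were lowest in deleted doxorubicin, where STING1 and CGAS were highest. TAGLN went otherwise, with group means of 30.4 CPM in intact DMSO, 109 in deleted DMSO, 22.7 in intact doxorubicin and 71.9 in deleted doxorubicin, and THY1 was highest in deleted DMSO at 73.7 CPM. Their part was likewise not tested.

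The genes whose levels followed STING1 and CGAS most closely were ranked by Pearson r of log2(CPM + 1) over the 12 libraries, among 10919 named genes with a mean over the 12 libraries of at least 5 CPM. The libraries form 4 groups, so r mostly compares group means and is given as a description with no test. For STING1 they were TJAP1 (r = 0.991), STAT3 (r = 0.984), RPS6KA1 (r = 0.982), NDRG4 (r = 0.978) and IRF1 (r = 0.977). STAT3 had group means of 226 CPM in intact DMSO, 162 in deleted DMSO, 248 in intact doxorubicin and 334 in deleted doxorubicin. For CGAS they were DENND2C (r = 0.991), FBXO22 (r = 0.991), SLC47A1 (r = 0.989), ZFP92 (r = 0.988) and ANXA4 (r = 0.988). FBXO22, a subunit of a ubiquitin ligase, had group means of 40.3, 52.5, 44.8 and 161 CPM in the same order.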

How the data were processed

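RNA of 12 libraries in 4 groups of 3 was analysed from raw counts per gene, deposited by the authors as 1 table. STAR 2.7.9a (alignment, hg38) and featureCounts from Subread 2.0.1 (counting) are named in the submitters' processing notes, with annotation release and strand setting not given in the sources used here. Of 60660 genes 58415 had a position in GENCODE 29. Genes were filtered with filterByExpr and scaled by TMM. A quasi-likelihood fit over the 4 groups in edgeR 4.0.16 (R 4.3.3) then tested 21803 genes. P-values were adjusted by Benjamini and Hochberg's method over every gene in the fit, and 0.05 was the threshold. Standard errors (SE) were taken as |log2 fold change| over the square root of F. No label states that libraries are separate cultures, so the p-values reflect no more than how these samples vary, which may be technical variation. Pairs of libraries within a group differed by more than sampling noise (chi-square per degree of freedom 7.72 to 179.5), so no library was treated as a copy of another.

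Alternatives were RLE and total scaling, no filter, at least 1 CPM in 3 libraries, DESeq2 1.42.0, limma-voom with limma 3.58.1, a replicate block, a loess correction for GC content (known for 98.0% of genes in the fit), fits of only the groups compared, and leaving out libraries. The fit was tested on simulated data: for doxorubicin in deleted cells it recovered 83.1% of 71 genes changed by 1 on the log2 scale and 98.4% of 61 changed by 2, with 6 false calls among 21140 genes. For the difference of doxorubicin effects it recovered 42.3% of the 71 and 95.1% of the 61, with 10 false calls among 21140. Changed genes are those at 1 CPM or more. The simulation gave all groups the same means except for a small set of genes changed in deleted doxorubicin, and held no trend shared by the genes of a library. The real groups differ in far more genes, so its recovery and false calls do not measure error in these data. The 10 genes and the other lists were chosen with earlier results of these data known. All 10 were named, and from each other list up to 3 genes that passed with the smallest p-values in each comparison, plus IFNB1, CCL5, CXCL10 and ISG15, where they add to the account; IFNL1 was added after its values were seen. Promoters are from RefSeq (GRCh38.p14). Some items that these rules take are not reported here.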

Additional observations from a re-analysis of the deposited data

Results flagged for a closer look

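The doxorubicin effect differed between the cell populations, by edgeR's test of the difference between the effects (deleted at 1 µM minus intact at 170 nM, log2 scale), for 23 named genes. That number follows from naming up to 3 genes a list. Over the 9 lists 33 of 98 tested genes passed, against 17% of all genes. The lists were chosen with earlier results of these data known, so no excess is drawn from that share. The 98 include IFNL1, ZDHHC1 and ENPP3, which passed the filter only through deleted libraries. Dose and genotype cannot be told apart in the difference. Of the 10 route genes they were CGAS at 0.57 and STING1 at 1.31, each higher in 3 of 3 treated deleted libraries than in any other library. Among other DNA sensors AIM2 was at 2.31, XRCC6 at -0.37 and HMGB2 at -0.70. DNASE1 was at 0.87. In STING trafficking and turnover TRIM32 was at 0.69, RHBDF2 at 2.02 and ZDHHC3 at -0.46. In cGAMP transport SLC46A1 was at 1.36, LRRC8D at -0.91 and P2RX7 at 1.43. In RNA sensing IFIH1 was at 1.29, NLRX1 at 1.78 and TLR3 at 1.58. Among outputs IFIT3 was at 1.20, ISG15 at 1.79, OASL at 1.40 and ATF3 at 4.01. CXCL10 was at 6.71, a fitted value that depends on the prior count because a group is at 0 counts. In interferon signalling STAT2 was at 0.90, IRF1 at 1.98 and USP18 at 1.22. The call of XRCC6 was lost in 9 of 21 alternatives and that of ZDHHC3 in 1.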

How the results depend on the processing

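Of 981 alternative values for 45 log2 fold changes of the 9 tested route genes, 898 kept direction and side of the threshold, 16 lost the call, 45 gained one and 22 changed sign without having been called. With DESeq2 5 of the 9 passed in DMSO between genotypes, where it called 37.9% of all genes. Removing the GC trend gave 6 there and 6 in the difference of doxorubicin effects, with 41.6% and 23.3% of all genes. Leaving out the 2 libraries of high mitochondrial share gave 8 between treated groups and 5 in the difference, with 51.9% and 20.9% of all genes. Leaving out each library gave 2 to 5 in DMSO, where 25.9% to 36.6% of all genes passed. Between treated groups it gave 3 to 6 (all genes, 40% to 51.8%) and at 1 µM 3 to 5 (22.9% to 33.1%). In the difference it gave 2 to 3 (11.9% to 20.2%) and at 170 nM 0 (0% to 0.97%). The highest in DMSO was without replicate 2 of intact doxorubicin, the lowest between treated groups without replicate 2 of deleted doxorubicin. Replicate numbers did not pair the samples (correlations of deviations -0.645 to 0.268). The replicate block gave 3 in DMSO, 0 at 170 nM, 4 at 1 µM, 5 between treated groups and 2 in the difference. These counts were the same without the block, and with it 30.8%, 0%, 27%, 44.4% and 13.4% of all genes passed, in that order. Scaling by library totals moved the median of all genes from -0.03 to 0.08 in the difference, with 2538 genes higher and 1020 lower against 2235 and 1470, and at 170 nM gave 7 higher and 41 lower against 6 and 7.

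The sign changes were of values small in the main fit, the largest 0.15 for TBK1 in the difference, and none of them was called. Some alternatives moved further from 0, such as ISG15 at 170 nM to -0.50. IFI16 in DMSO became -0.034 with the GC trend removed and -0.21 without both libraries of high mitochondrial share; with single libraries left out it ran from -0.20, without replicate 2 of deleted DMSO, to 0.21. At 170 nM IRF3 became 0.013 with the GC trend removed and 0.12 without both libraries (single libraries left out, -0.21 to 0.12), and BANF1 0.016 and 0.033 (-0.12 to 0.068). ISG15 at 170 nM became -0.023 with library totals and -0.099 with limma-voom (-0.50 to 0.32). At 1 µM ENPP1 became 0.020 with library totals, 0.097 with the GC trend removed and 0.024 without both libraries (-0.074 to 0.019), and MAVS ran from -0.12 to 0.036. Between treated groups IRF3 became 0.0096 with library totals (-0.25 to 0.071) and BANF1 0.072 (-0.085 to 0.068). TBK1 in the difference ran from -0.0021 to 0.32. The cause was not tested. IKBKE, the scarcest tested gene of the route, had 196 to 585 counts in each library.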
